A study of Homo sapiens with 12 samples.

Results

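Replicate 2 of each treatment group of BEAS-2B cells was compared with replicates 1 and 3 of the same group, to describe the genes by which cultures of 1 cell line differed alike under 4 conditions. BEAS-2B is an established line grown from human bronchial epithelium and made immortal by a viral hybrid. Polyadenylated RNA was sequenced from 12 libraries, 3 in each of 4 groups. The cells were left as control, were given TGF-β1 at 40 pM for 24 h, were given dexamethasone at 30 nM for the last 4 h, or were given both in that order. All 4 groups were seeded at 25000 cells per square centimetre and kept for 24 h in medium free of serum and steroid before treatment. TGF-β1 is a cytokine known for raising matrix genes, and dexamethasone activates the glucocorticoid receptor. Libraries were numbered 1 to 3 in each group, and the labels call them biological triplicates without saying what a number shares. Whether libraries of 1 number share a culture, an extraction or a sequencing run is not given in the sources used here, so these cannot be told apart.

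A gene was a member when edgeR's model of treatment group and replicate 2 put it at an adjusted p under 0.05 and when its CPM (counts scaled to the normalised size of its library) in replicate 2 lay above, or below, both replicates 1 and 3 in each of the 4 groups. By this rule 1795 of the 13469 genes tested were members (13.3%), of 28395 gene identifiers in all. Of these, 764 were higher in replicate 2 (5.67% of genes tested) and 1031 were lower (7.65%). Members were thus chosen by the difference between replicate 2 and the others, which is given as a description with no test. A difference is the log2 CPM of replicate 2 minus the mean of replicates 1 and 3 within a group, averaged over the 4 groups and given ± SD over those groups (n = 4).

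As background, airway basal cells carry keratins 5 and 14, and in culture or after injury they can add keratins 6 and 16, small proline-rich proteins and S100 proteins, a pattern known as squamous differentiation. Lysosomes break down protein, lipid and sugar chains. Many lysosomal genes carry E-box sequences near their start that are read by the MiT/TFE family of transcription factors (MITF, TFEB and TFE3), and sterol regulatory elements near genes of lipid synthesis are read by SREBP factors. These programmes respond in cultured cells to density, nutrients and growth factors.

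The starts of 8 members are shown here because they carry the main contrast among the results, between epithelial surface genes that were higher and lysosomal or lipid genes that were lower. Each run covers 250 bases before to 50 bases after the RefSeq start of the gene on GRCh38.p14, written 5′ to 3′ in the direction of the gene. Capitals mark every match on either strand to 1 of 6 words: TGACTCA (AP-1), CACGTG (E-box), TCATGTG (M-box, an E-box with a flanking T), CATTCC (TEAD), TATAAA (core promoter box) and the sterol regulatory element of the SREBF2 window. No marked matches overlap one another. GPNMB and AQP3 were named by size of difference, S100A9 by size and by list, and CTSA by its list. SPRR1B, LAMP1, NEU1 and SREBF2 were chosen after their values were seen. S100A9 (chr1:153357604-153357903, plus strand), SPRR1B (chr1:153030953-153031252, plus strand) and AQP3 (chr9:33447544-33447843, minus strand) were higher in replicate 2:
S100A9: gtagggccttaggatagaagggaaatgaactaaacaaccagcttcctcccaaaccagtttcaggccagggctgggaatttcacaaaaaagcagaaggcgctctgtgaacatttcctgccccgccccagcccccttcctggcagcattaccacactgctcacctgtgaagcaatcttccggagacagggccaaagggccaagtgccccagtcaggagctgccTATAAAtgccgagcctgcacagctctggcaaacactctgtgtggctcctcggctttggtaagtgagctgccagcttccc
SPRR1B: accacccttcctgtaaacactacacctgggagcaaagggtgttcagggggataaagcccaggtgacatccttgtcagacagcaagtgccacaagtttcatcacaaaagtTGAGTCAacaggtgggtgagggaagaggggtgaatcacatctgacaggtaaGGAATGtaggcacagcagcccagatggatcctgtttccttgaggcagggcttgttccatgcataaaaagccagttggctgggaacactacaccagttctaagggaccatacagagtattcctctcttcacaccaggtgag
AQP3: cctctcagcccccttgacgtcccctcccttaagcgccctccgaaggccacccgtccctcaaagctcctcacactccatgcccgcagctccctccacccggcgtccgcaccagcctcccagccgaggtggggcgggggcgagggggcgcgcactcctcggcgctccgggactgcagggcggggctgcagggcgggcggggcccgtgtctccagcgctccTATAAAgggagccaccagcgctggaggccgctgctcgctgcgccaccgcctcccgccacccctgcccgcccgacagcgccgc
GPNMB (chr7:23246525-23246824, plus strand), CTSA (chr20:45891085-45891384, plus strand), LAMP1 (chr13:113296989-113297288, plus strand), NEU1 (chr6:31862772-31863071, minus strand) and SREBF2 (chr22:41832855-41833154, plus strand) were lower:
GPNMB: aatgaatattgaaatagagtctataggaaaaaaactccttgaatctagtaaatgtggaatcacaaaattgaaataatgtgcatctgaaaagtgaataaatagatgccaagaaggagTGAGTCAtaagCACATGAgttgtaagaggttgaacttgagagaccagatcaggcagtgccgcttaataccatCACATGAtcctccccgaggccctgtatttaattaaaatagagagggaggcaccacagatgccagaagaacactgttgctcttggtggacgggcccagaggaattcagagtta
CTSA: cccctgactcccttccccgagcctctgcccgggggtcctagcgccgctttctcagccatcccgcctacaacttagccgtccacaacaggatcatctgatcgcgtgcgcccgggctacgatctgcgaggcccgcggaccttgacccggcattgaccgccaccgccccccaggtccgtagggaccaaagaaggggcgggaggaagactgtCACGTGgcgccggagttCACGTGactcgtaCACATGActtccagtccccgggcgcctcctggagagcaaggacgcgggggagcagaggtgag
LAMP1: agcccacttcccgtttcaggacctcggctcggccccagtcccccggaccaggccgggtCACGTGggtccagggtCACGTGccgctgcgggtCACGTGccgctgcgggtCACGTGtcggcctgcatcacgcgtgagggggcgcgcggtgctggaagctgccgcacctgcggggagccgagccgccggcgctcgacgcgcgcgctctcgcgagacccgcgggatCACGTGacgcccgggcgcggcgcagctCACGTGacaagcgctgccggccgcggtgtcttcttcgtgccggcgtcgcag
NEU1: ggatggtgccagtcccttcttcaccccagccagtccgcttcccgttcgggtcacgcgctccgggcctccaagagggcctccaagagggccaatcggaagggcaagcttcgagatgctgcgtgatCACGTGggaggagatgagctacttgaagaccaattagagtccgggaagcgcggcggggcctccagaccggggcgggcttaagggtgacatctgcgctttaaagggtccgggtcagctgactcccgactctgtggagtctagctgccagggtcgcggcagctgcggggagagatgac
SREBF2: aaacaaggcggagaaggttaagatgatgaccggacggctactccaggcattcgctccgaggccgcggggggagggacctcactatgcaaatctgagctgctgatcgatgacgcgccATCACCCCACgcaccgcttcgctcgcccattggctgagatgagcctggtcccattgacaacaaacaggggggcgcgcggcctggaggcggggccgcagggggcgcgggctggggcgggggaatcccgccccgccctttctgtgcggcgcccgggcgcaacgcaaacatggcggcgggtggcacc

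The 3 windows of higher members held no E-box, M-box or sterol element. Those of S100A9 and AQP3 held a TATA word at 29 and 32 bases before the start, and that of SPRR1B held an AP-1 word at 141 and a TEAD word at 90 bases. The LAMP1 window held 6 E-boxes, CTSA held 2 E-boxes and an M-box, and NEU1 held 1 E-box. The GPNMB window held 2 M-boxes, at 123 and 62 bases before the start, beside an AP-1 word at 134 bases. SREBF2 held the sterol element at 134 bases before the start. The lysosomal windows were printed because they hold an E-box: of 8 lower lysosomal members with a window these 3 did and 5 did not. Likewise 1 of 8 lower cholesterol members with a window held the sterol element and 7 did not. A promoter was in the RefSeq table for 10659 of the genes tested, for 613 of the 764 higher members and for 824 of the 1031 lower members. The E-box word was in 139 of these 824 windows (16.87%), in 52 of the 613 windows of higher members (8.48%), in 10.09% of the 10659 and in 7.43% of all 27305 windows of the table. The M-box word was in 38 (4.61%), in 5 (0.82%), in 1.52% and in 2.99%, in the same order. Because under 80% of the lower members, and of all genes tested, had a window, the comparison of these shares is void. A match is a description of letters and not evidence of binding.

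Replicates 1 and 2 were of like depth (5861591 to 7008203 counts a library), and replicate 3 was deeper (17968961 to 19727235). The mitochondrial share of counts was 3.002% to 3.69% in replicate 2 and 2.35% to 3.85% in the others. All 15 markers of airway epithelial cells had counts, and they summed to 3145 to 4861 CPM in replicate 2 against 2102 to 3654 in the others. The sum does not stand for most of these markers: the difference was above 0 for 6 and below 0 for 9 (median -0.04). A549, a line from a lung adenocarcinoma, is named in the growth protocol, although the other fields name BEAS-2B. Of 19 transcripts abundant in A549 cells 17 had a count, NTS and FGA had none, and the sum was 112 to 164 CPM in replicate 2 against 72.0 to 99.0 in the others. The sums were 20.4 to 26.8 against 23.6 to 31.9 CPM for leukocyte markers, 9.86 to 13.5 against 7.15 to 17.5 for endothelial markers, and 429 to 927 against 282 to 674 for fibroblast markers. In bulk RNA, fewer cells of a type and less RNA per cell cannot be told apart.

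Once the mean of each group was removed, replicate 2 stood apart from the other libraries along the main axis of what remained. On component 1 of these deviations (38.6% of variance) the 4 replicate 2 libraries lay between 19.96 and 25.5 and the other 8 between -15.3 and -8.64. Component 2 (17.1%) separated replicate 1 from replicate 3. Pooled over all genes, the contrast of replicate 2 with the others held 38.0% of the variance within groups and the contrast of replicate 1 with 3 held 17.03%, where each has 12.5% of the degrees of freedom. For members the first share was 80.4%, which the rule fixes in part. The common biological coefficient of variation was 0.122 with groups alone, 0.0852 with a term for replicate 2 and 0.0577 with a term for every number.

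**Figure D1:**
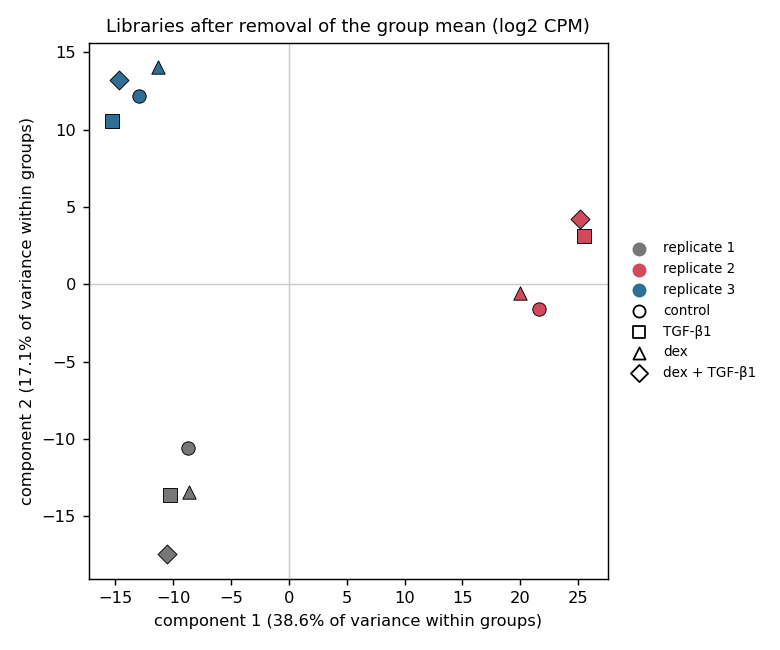
Principal components of log2 CPM after removal of each group's mean, 1 point per library, with colour for the replicate number and shape for the treatment group. The 4 replicate 2 libraries sit between 19.96 and 25.5 on component 1, apart from the other 8, and component 2 separates replicates 1 and 3.

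Most member differences were small, and they were alike in the 4 groups, a likeness that the rule fixes in part. The median size was 0.38 for higher members and 0.35 for lower members on the log2 scale. A difference of at least 1 was found for 77 higher and 68 lower members, and the largest were 3.69 for KRT1, which depends on the prior count because most libraries held few reads of it, and -3.35 for GPNMB. The SD over the 4 groups was under 50% of the difference in 77.4% of higher and 78.1% of lower members. Members just inside the threshold were GABARAPL2 (-0.21) and RAB30 (0.33), and genes just outside were RBM19 (-0.20) and CLIP4 (0.24). Without the requirement on each group, 928 genes were higher and 1251 lower. When libraries were scaled by total count alone, 1078 were higher and 761 lower, so that 58.6% of members were higher in place of 42.6%. In that scaling the median of all genes was 0.04 in place of -0.004, and no member took the other direction. Without replicate 2 of the group given both agents 503 genes were higher.

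Keratins and other genes of squamous epithelium were the group with the most members higher in replicate 2. Of 29 tested genes of a squamous and basal epithelial list, 16 were higher members, 1 was a lower member and 12 were neither, with a median difference of 0.78 against -0.004 for all genes. KRT16, a type I keratin of activated and hyperproliferative epidermis on chromosome 17 from 41609778 to 41612767 (GRCh38.p14, protein-coding), stood at 9.39995, 52.3 and 5.699 CPM in control, 25.2, 87.98 and 15.4 with TGF-β1, 14.2, 82.7 and 9.33 with dexamethasone, and 45.05, 153 and 25.5 with both, in the order of replicates 1, 2 and 3 here and below. Every replicate 2 library was above all 8 other libraries, whatever the treatment. Its difference was 2.49 ± 0.38. KRT6A, its type II partner on chromosome 12 from 52487176 to 52493257, was at 20.9, 62.2 and 17.3 CPM in control, 68.3, 189.7 and 49.1 with TGF-β1, 94.5, 204 and 64.9 with dexamethasone, and 241, 478 and 177 with both. Replicate 2 was highest within each group, although the control replicate 2 library lay below several libraries given an agent (difference 1.5 ± 0.25). KRT6B (1.68 ± 0.27) ranged from 1.86 to 9.398 CPM in replicate 2 and 0.303 to 3.59 in replicates 1 and 3. KRT6A, KRT6B and KRT6C are near-identical copies, and how the counting split reads between them is uncertain.

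S100A9, a calcium-binding alarmin of inflamed squamous epithelium on chromosome 1 from 153357854 to 153361023, was at 5.76, 18.9 and 4.35 CPM in control, 2.28, 7.58 and 1.74 with TGF-β1, 7.097, 18.6 and 3.26 with dexamethasone, and 2.43, 5.92 and 1.28 with both. Within each replicate number the libraries without TGF-β1 were higher than those with it, and replicate 2 was highest in each group (difference 1.81 ± 0.12). SPRR1B, a cornified envelope precursor, was nearly absent outside replicate 2: it stood at 0, 2.17 and 0.386 CPM in control, 0.3504, 2.32 and 0 with TGF-β1, 0.296, 2.98 and 0.191 with dexamethasone, and 0.162, 2.44 and 0 with both. These are few reads, so its difference of 3.01 ± 0.23 depends on the prior count of 2 and is not a fold. The remaining higher members of the list were LY6D (2.48), KLK7 (1.84), KLK10 (1.78), S100A8 (1.74), KRT14 (1.33), PKP1 (1.00), KLK5 (0.92), DSG3 (0.90), KRT5 (0.78), KRT17 (0.70) and SFN (0.18), most of them chosen after their values were seen. The kallikreins KLK5 and KLK7 are proteases that shed surface cells of the skin, and PKP1 and DSG3 are parts of desmosomes. The lower member was COL17A1, a collagen of the hemidesmosome, at 33.99 to 84.9 CPM in replicate 2 and 51.4 to 132 in replicates 1 and 3 (-0.62 ± 0.19). TP63, the master factor of basal cells, was no member, at 23.4 to 43.1 CPM in replicate 2 and 18.8 to 42.9 in replicates 1 and 3, and the ranges overlap.

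Some of these members lie side by side in the genome. Runs of higher members among neighbouring tested genes were KRT6B, KRT6C, KRT6A, KRT5, KRT1 and KRT8 (chr12:52446651-52949860), KRT14, KRT16 and KRT17 (chr17:41582279-41624575), FLG, SPRR1B, S100A9 and S100A8 (chr1:152302165-153422583), S100A4, S100A3, S100A2 and S100A16 (chr1:153543621-153613137), KLK5, KLK7 and KLK10 (chr19:50943303-51020097) and AKR1C2, AKR1C3, NET1 and CALML3 (chr10:4987775-5526771). Of 759 placed higher members, 18.2% had a neighbouring higher member, against 10.4% of the other genes. For the 1023 placed lower members the shares were 20.3% and 14.1%. No nuclear chromosome moved as a whole: the median difference ran from -0.03 to 0.02 over the nuclear chromosomes.

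**Figure D2:**
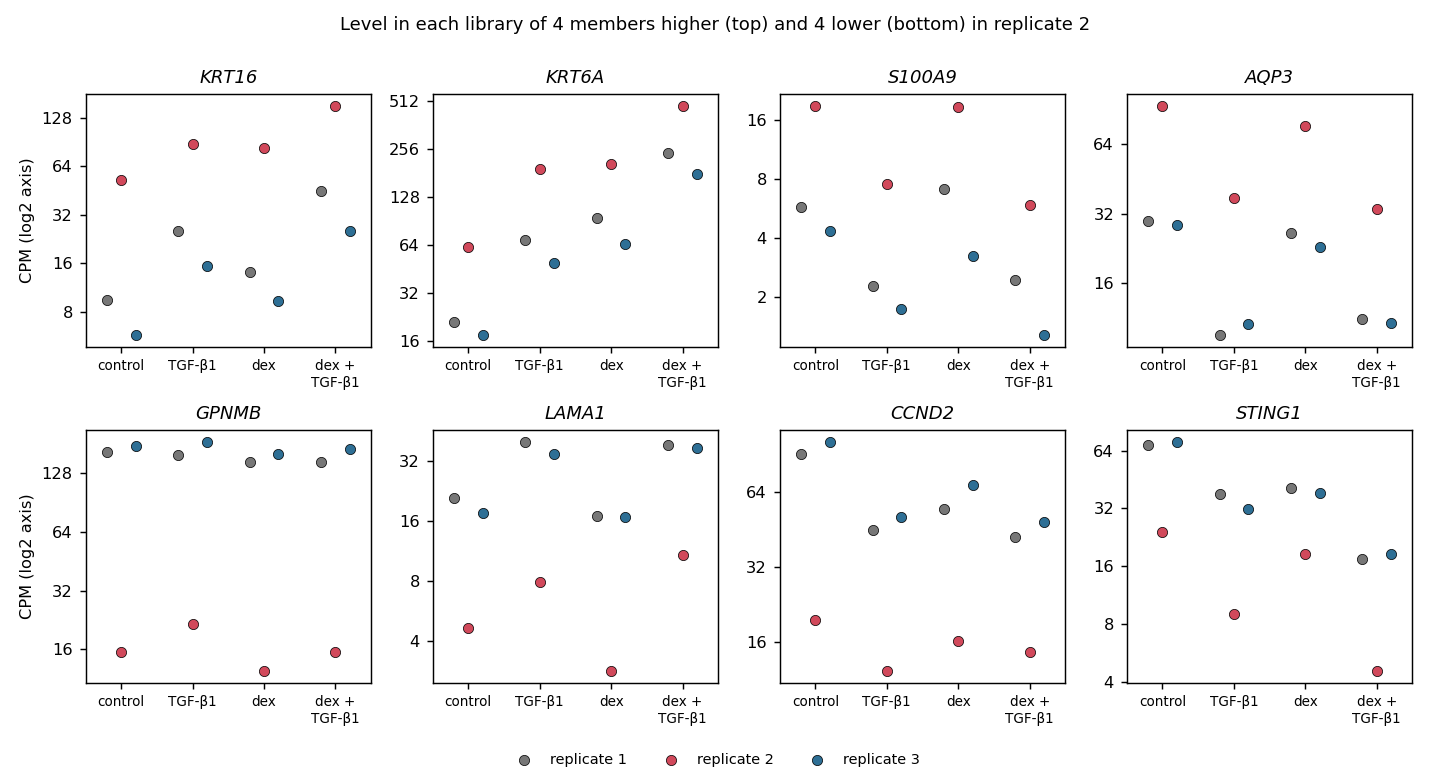
CPM on a log2 axis for each of the 12 libraries, by treatment group, with colour for the replicate number. Within each group the replicate 2 point lies above both others for KRT16, KRT6A, S100A9 and AQP3 and below both for GPNMB, LAMA1, CCND2 and STING1.

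The higher members with the largest differences had varied roles. LGR6, an R-spondin receptor of epithelial stem cells, was at 2.73, 22.2 and 1.11 CPM in control, 9.81, 35.9 and 6.06 with TGF-β1, 1.48, 12.6 and 1.39 with dexamethasone, and 6.81, 25.2 and 2.98 with both. Replicate 2 was highest in each group and every replicate 2 library was above all others (difference 2.78 ± 0.59). AQP3, the water and glycerol channel of basal airway cells, was at 29.7, 94.4 and 28.4 CPM in control, 9.46, 37.3 and 10.6 with TGF-β1, 26.3, 76.6 and 22.9 with dexamethasone, and 11.2, 33.4 and 10.7 with both. Within each replicate number the libraries with TGF-β1 were lower than those without it, and replicate 2 kept its place above the others at a nearly constant distance (1.70 ± 0.12). ALPP, the placental alkaline phosphatase, ranged from 2.63 to 16.1 CPM in replicate 2 and 0.526 to 3.99 in replicates 1 and 3 (2.09 ± 0.34). RGS4, which turns off G protein signals, ranged from 9.398 to 88.5 CPM in replicate 2 and 1.03 to 42.8 in replicates 1 and 3 (2.07 ± 0.76). The noncoding imprinted RNA H19 ranged from 2.01 to 6.61 CPM in replicate 2 and 0.606 to 3.83 in replicates 1 and 3 (1.86 ± 0.83). SERPINB13, a protease inhibitor of squamous epithelium, and FGFBP1, a carrier that releases fibroblast growth factors from matrix, differed by 1.58 ± 0.25 and 1.56 ± 0.74. The rest of the 15 largest were AHRR (1.91 ± 0.80), ALDH3A1 (1.75 ± 0.08), TSPAN18 (1.63 ± 0.50), TMEM47 (1.62 ± 0.50) and LSP1 (1.56 ± 0.56).

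ALDH3A1, an aldehyde dehydrogenase of the cornea and of exposed airway, was at 9.55, 36.01 and 11.3 CPM in control, 2.103, 4.17 and 0.673 with TGF-β1, 6.95, 26.03 and 7.85 with dexamethasone, and 1.94, 4.18 and 0.547 with both. TGF-β1 libraries were lower than the rest in each replicate number. AHRR, the repressor of the aryl hydrocarbon receptor, was at 2.43, 18.2 and 2.22 CPM in control, 1.23, 6.18 and 1.07 with TGF-β1, 2.22, 5.06 and 1.82 with dexamethasone, and 1.78, 3.31 and 0.912 with both, with replicate 2 above every other library in all 4 groups. ALDH3A1, AKR1C2, AKR1C3 and UCHL1 were the 4 higher members among the 6 tested transcripts abundant in A549 cells. Of 26 targets of NRF2, the regulator of antioxidant enzymes, 7 were higher and 3 lower members. NQO1, a quinone reductase, ranged from 102 to 213 CPM in replicate 2 and 62.1 to 154 in replicates 1 and 3 (0.63 ± 0.03), and the lower ones were the ferritin chains FTL (-0.27) and FTH1 (-0.26) and the haem oxygenase HMOX1 (-0.22).

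GPNMB, a glycoprotein of lysosomes and melanosomes, was the lower member with the largest difference. It lies on chromosome 7 from 23246775 to 23275108 and stood at 165, 15.5 and 177 CPM in control, 159, 21.5 and 187 with TGF-β1, 146, 12.3 and 162 with dexamethasone, and 146, 15.5 and 170.1 with both. No replicate 2 library came near any other, and treatments changed little beside that gap (difference -3.35 ± 0.26). MITF itself, whose family reads the M-box, was no member, at 4.699 to 7.73 CPM in replicate 2 and 2.804 to 6.76 in replicates 1 and 3, and these ranges overlap. APOE, a lipid carrier, was at 21.98, 4.501 and 13.8 CPM in control, 14.9, 3.71 and 15.4 with TGF-β1, 19.7, 2.83 and 15.3 with dexamethasone, and 18.8, 5.05 and 16.7 with both, and again the replicate 2 libraries were all below the other 8 (-2.05 ± 0.34). STING1, the adaptor of cytosolic DNA sensing, was at 68.2, 24.2 and 71.3 CPM in control, 38.02, 8.97 and 31.6 with TGF-β1, 40.95, 18.4 and 38.4 with dexamethasone, and 17.3, 4.52 and 18.5 with both. Its level varied with treatment, and replicate 2 was lowest in each group (-1.62 ± 0.40).

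Among the 15 lower members with the largest differences were genes of matrix, growth control and signalling. LAMA1, the alpha-1 chain of laminin, was at 20.9, 4.66 and 17.6 CPM in control, 39.95, 7.89 and 34.5 with TGF-β1, 16.9, 2.83 and 16.7 with dexamethasone, and 38.4, 10.8 and 36.9 with both. Replicate 2 was below all other libraries in every group (-2.12 ± 0.30). CCND2, cyclin D2 of the G1 phase, was at 91.1, 19.7 and 102 CPM in control, 45.2, 12.2 and 50.9 with TGF-β1, 54.998, 16.2 and 68.2 with dexamethasone, and 42.5, 14.6 and 48.6 with both. Its replicate 2 libraries, too, lay below all 8 others (-1.94 ± 0.27). FAP, a surface protease of activated fibroblasts, was at 1.97, 0.466 and 2.42 CPM in control, 105, 26.7 and 131 with TGF-β1, 2.37, 0.446 and 3.45 with dexamethasone, and 97.9, 33.9 and 141 with both. The groups with TGF-β1 were far above those without, and replicate 2 was below its neighbours in each (-2.01 ± 0.22). The others were SDS (-2.26 ± 1.05), PTPRB (-2.13 ± 0.94), FGF5 (-1.92 ± 0.94), STYXL2 (-1.85 ± 1.05), DACT1 (-1.80 ± 0.28), GDF15 (-1.76 ± 0.66), PCDH7 (-1.65 ± 0.25), NR4A1 (-1.64 ± 0.41) and C1orf198 (-1.61 ± 0.33). FGF5 is a fibroblast growth factor and GDF15 a stress-induced cytokine. For SDS, PTPRB, FGF5 and STYXL2 the SD over groups was 0.94 to 1.05, so their size varied most with the group.

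Lysosomal genes were the list with the largest share of lower members. Of 22 tested, 15 were lower members, 0 were higher and 7 were neither, with a median difference of -0.37, and 21 of 22 differences were below 0. CTSA, the protective protein of lysosomal glycosidases on chromosome 20 from 45891335 to 45898820, was at 330.1, 226 and 341 CPM in control, 298, 219 and 338 with TGF-β1, 334, 207 and 344 with dexamethasone, and 309, 207 and 345 with both. The replicate 2 libraries lay between 207 and 226 CPM and all others between 298 and 345 (-0.62 ± 0.08). PSAP, the precursor of the saposins that assist lipid breakdown, ranged from 938 to 991 CPM in replicate 2 and 1346 to 1695 in replicates 1 and 3 (-0.61 ± 0.08). CTSB, a cathepsin protease, ranged from 546 to 989 CPM in replicate 2 and 811 to 1974 in replicates 1 and 3 (-0.81 ± 0.21). The ranges did not overlap for PSAP and did for CTSB. LAMP1 (-0.38 ± 0.07) and NEU1 (-0.47 ± 0.14), whose windows with E-boxes are printed above, were at 375 to 435 CPM in replicate 2 and 452 to 616 in replicates 1 and 3 and at 76.6 to 105 CPM in replicate 2 and 121 to 149.7 in replicates 1 and 3, respectively. The list's count was 15 or 16 when any 1 library was left out.

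Genes of lipid synthesis were also lower. Of 24 tested cholesterol synthesis genes 12 were lower and 0 higher members (median difference -0.18). HMGCS1, an early enzyme of the pathway, was at 547, 335 and 641 CPM in control, 440.0, 353 and 427 with TGF-β1, 347, 241 and 402 with dexamethasone, and 297, 247 and 297 with both. Its replicate 2 libraries were lowest within each group but overlapped with those of other groups (-0.50 ± 0.27). INSIG1 (-0.47), HSD17B7 (-0.47) and the regulator SREBF2 (-0.18) were lower members too. The count was 7 without replicate 2 of control, 7 without replicate 2 of dexamethasone, and 8 with 1 higher under scaling by total count. Of 11 fatty acid synthesis genes 6 were lower members (median -0.25). SCD, the stearoyl-CoA desaturase, was at 1299, 905 and 1536 CPM in control, 2231, 1624 and 2470.5 with TGF-β1, 1045, 725 and 1130.3 with dexamethasone, and 1967, 1324 and 1984 with both (-0.58 ± 0.05). FADS1 (-0.49 ± 0.05) and FADS2 (-0.27 ± 0.01), desaturases of polyunsaturated fatty acids, differed nearly equally in the 4 groups.

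Of 35 hypoxia and glycolysis genes, 15 were lower members and 2 were higher (median -0.27). ALDOC, an aldolase isoform, was at 38.8, 18.6 and 49.99 CPM in control, 46.3, 20.7 and 63.5 with TGF-β1, 40.7, 21.9 and 49.1 with dexamethasone, and 40.3, 22.3 and 60.4 with both. Replicate 2 lay at 18.6 to 22.3 CPM and no other library was below 38.8 (-1.19 ± 0.15). BNIP3, which marks mitochondria for removal, differed by -0.70 ± 0.36, ENO2, an enolase, by -0.68 ± 0.27, and ADM, the vasodilator adrenomedullin, by -0.68 ± 0.16. The 2 higher members were PKM, the pyruvate kinase, at 2992 to 3757 CPM in replicate 2 and 2261 to 2958 in replicates 1 and 3 (0.36 ± 0.05), and SLC2A1, the glucose transporter GLUT1, at 366 to 479 CPM in replicate 2 and 260.2 to 399 in replicates 1 and 3 (0.44 ± 0.08).

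Ribosomal protein genes differed little but in 1 direction. Of 78 tested, 35 were lower and 0 higher members (median -0.16), 74 of 78 differences were below 0, and none reached 0.5 in size among the members. Among members RPS16 had the largest, at 349.7 to 373 CPM in replicate 2 and 423 to 529 in replicates 1 and 3 (-0.41 ± 0.10). Over all 78 tested the differences ran from -0.67 to 0.10. The count was 19 without replicate 2 of dexamethasone and 27 under scaling by total count. By contrast 0 of 25 genes of ribosome assembly in the nucleolus were members. Of 51 nuclear genes of oxidative phosphorylation 12 were lower and 0 higher members (median -0.16). COX7A2, a subunit of cytochrome c oxidase, ranged from 57.6 to 64.4 CPM in replicate 2 and 72.99 to 89.002 in replicates 1 and 3 (-0.43 ± 0.16), and NDUFA3 of complex I from 14.998 to 17.6 CPM in replicate 2 and 19.3 to 24.4 in replicates 1 and 3 (-0.38 ± 0.06). That count was 7 under scaling by total count and 20 without replicate 3 of the group given both agents.

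Histone genes differed mostly upward in replicate 2. Of 16 genes of a histone list 7 were higher members and 1 was a lower member (median 0.63). The list holds mostly replication-dependent histones, whose main transcripts lack a poly(A) tail. H2AC6 ranged from 8.66 to 11.95 CPM in replicate 2 and 4.32 to 7.58 in replicates 1 and 3 (0.91 ± 0.18), H2BC11 differed by 0.86 ± 0.26, H2AC8 by 0.81 ± 0.29 and H2BC21 by 0.74 ± 0.30. Of 15 mitochondrial transcripts, the ribosomal RNAs RNR1 and RNR2 were higher and 5 messenger RNAs were lower members. The higher count was 1 without replicate 2 of any of the 4 groups, and 1 without replicate 3 of dexamethasone. The lower count also varied (2 lower without replicate 2 of control, 2 without replicate 2 of dexamethasone, 3 without replicate 1 and 3 without replicate 3 of dexamethasone). RNR1 was at 4516, 6601 and 2962 CPM in control, 4253, 5920.2 and 2711 with TGF-β1, 4266, 6165 and 2996 with dexamethasone, and 4564, 5892 and 2321 with both, with replicate 2 above all others and replicate 1 above replicate 3 in each group (0.82 ± 0.04). ND1, a subunit of complex I, was at 1129, 743 and 1258 CPM in control, 1109.7, 728 and 925 with TGF-β1, 1445, 875 and 1458 with dexamethasone, and 1125, 809 and 1121 with both (-0.59 ± 0.13). Of 12 nuclear-retained RNAs 0 were higher and 1 was lower, and 0 of 15 snoRNAs tested were members. The part of poly(A) selection in the differences of members was not tested.

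Cell cycle and stress lists held members as follows, where 5.67% of all genes tested were higher and 7.65% lower members. Of 23 S phase genes 0 were higher and 1 was lower (MCM2, -0.13 ± 0.01). That lower count was 0 with DESeq2. It was also 0 when any 1 library other than replicate 3 of both agents was left out. The higher count was 1 without replicate 1 of dexamethasone or of both agents. Of 25 mitosis genes 1 was higher (4%) and 4 were lower (16%). The lower mitosis count was 2 without replicate 2 of control. CENPE (-0.38 ± 0.05) and MKI67 (-0.24 ± 0.06) were among the lower ones. Of 24 p53 targets 6 were lower (3 without replicate 2 of the group given both agents), with GDF15 at 17.4, 6.36 and 13.96 CPM in control, 46.6, 7.89 and 46.4 with TGF-β1, 4.44, 1.49 and 2.82 with dexamethasone, and 9.88, 2.09 and 9.19 with both and the apoptosis gene BBC3 at -0.63 ± 0.27. Of 32 ATF4 targets 6 were lower (3 without replicate 2 of TGF-β1), GDF15 again and NUPR1 (-0.92 ± 0.28) and DDIT3 (-0.53 ± 0.25) with it. Of 17 heat shock genes 5 were higher (3 without replicate 2 of TGF-β1, and 3 without that of both agents), led by the co-chaperone DNAJA1 (0.46 ± 0.09), and 2 were lower, HSPB1 (-0.48 ± 0.14) and BAG3 (-0.31 ± 0.11). HSPA1A and HSPA1B, both higher members, are near-identical copies that can share reads.

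Of 25 immediate-early genes 1 was a higher member (4%, against 5.67% of all genes tested) and 4 were lower members (16%, against 7.65%). NR4A1, an orphan nuclear receptor, was at 15.3, 4.19 and 17.97 CPM in control, 13.8, 4.33 and 15.4 with TGF-β1, 13.3, 7.14 and 16.6 with dexamethasone, and 13.9, 4.003 and 16.4 with both, with every replicate 2 library below all others (-1.64 ± 0.41). FOS differed by -1.26 ± 0.49 and EGR1 by -0.70 ± 0.38. Of 44 extracellular matrix genes 8 were lower (18.2%) and 2 higher members (4.55%). BGN, the proteoglycan biglycan, ranged from 92.8 to 1034 CPM in replicate 2 and 197 to 1677 in replicates 1 and 3 (-0.90 ± 0.23), COL4A1, a basement membrane collagen, from 106 to 1929 CPM in replicate 2 and 152 to 3437 in replicates 1 and 3 (-0.66 ± 0.12), and the higher VCAN, versican, from 48.5 to 553 CPM in replicate 2 and 21.5 to 349 in replicates 1 and 3 (0.71 ± 0.31). Each range spans libraries with and without TGF-β1. Of 41 actin and contractile genes 6 were higher and 1 lower (3 higher without replicate 2 of dexamethasone), led by PDLIM7 (0.48 ± 0.19) and DSTN (0.44 ± 0.06). Of 25 SMAD targets 3 were higher and 5 lower, the TGF-β receptor TGFBR2 (0.32 ± 0.20) and TGFBR1 (-0.49 ± 0.23) among them in opposite directions. Without replicate 2 of control 0 were higher and without replicate 2 of TGF-β1 1 was, and the lower count was 8 without replicate 2 and 9 without replicate 3 of dexamethasone. Of 15 genes of MHC class I presentation 4 were lower, B2M (-0.36 ± 0.05) foremost, and 1 was higher (TAP2, 0.18 ± 0.07). The lower count was 2 without replicate 1 of control, 2 without its replicate 2, 2 without replicate 2 of both agents and 1 without replicate 2 of dexamethasone. Of 30 interferon-stimulated genes 2 were higher (1 without replicate 2 of control) and 2 lower (1 without replicate 2 of dexamethasone or of both agents). These shares, 6.67% each, are near the 5.67% and 7.65% of all genes tested, so nothing is read from them.

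**Figure D3:**
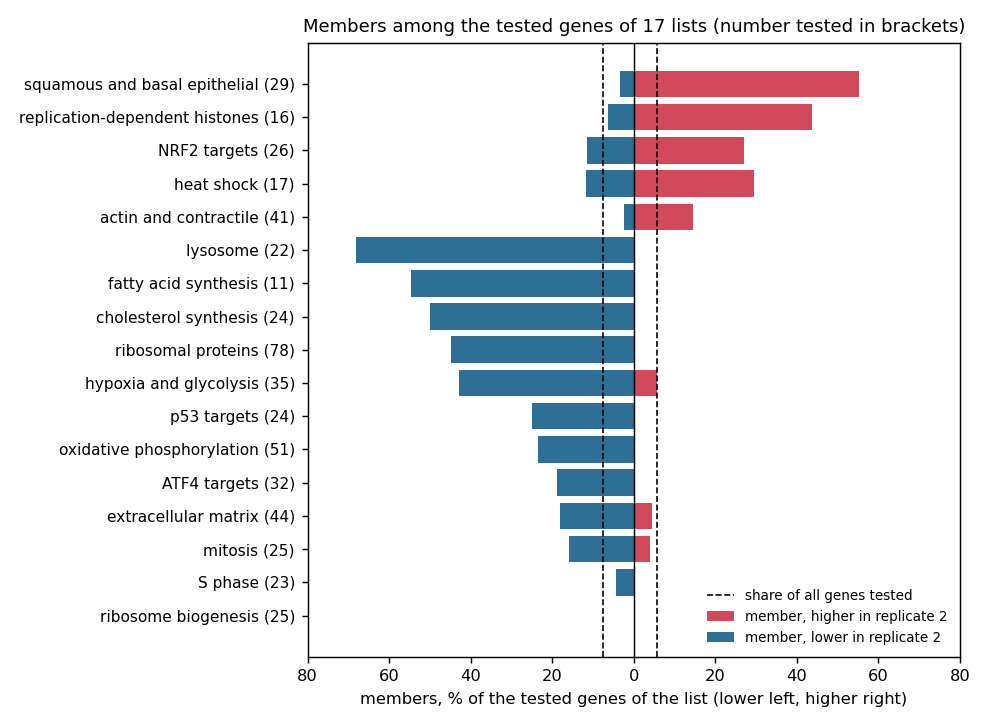
Share of the tested genes of 17 lists that were members, with lower members drawn to the left and higher members to the right, in percent. Dashed lines mark 5.67% higher and 7.65% lower over all genes, and the bars are longest for squamous epithelium (16 of 29 higher) and lysosome (15 of 22 lower).

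Replicates 1 and 3 were compared with each other to ask whether the members also separated libraries that the rule had pooled. The rule asked replicate 2 to lie beyond both of them in every group and counted their difference as spread, so it favours genes in which they differ little. Their contrast held 5.49% of the variance within groups for members and 17.03% for all genes. By the quasi-likelihood test of edgeR, with p adjusted over all genes, 2520 of 13469 genes differed (18.7%), 1073 higher in replicate 1 (7.97%) and 1447 lower (10.7%). Of the 1795 members 245 differed (13.6%), a share that the rule lowers, so nothing is read from it. Members higher in replicate 2 were higher in replicate 1 than in replicate 3 in 92 of 764 cases and lower in 13, and members lower in replicate 2 were lower in replicate 1 in 98 of 1031 cases and higher in 42. The median difference of replicate 1 from 3 was 0.07 for higher members, -0.01 for lower members and 0.003 for all genes. The count of 245 was 148 without replicate 1 of dexamethasone and 141 without replicate 1 of the group given both agents.

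In the squamous list 12 of 29 genes were higher in replicate 1 than in replicate 3 and 0 were lower. KRT16 was higher in replicate 1 (log2 difference 0.74, SE 0.15, adjusted p = 0.00716 by edgeR), as were S100A9 (0.73, SE 0.18, adjusted p = 0.00872) and KRT6A (0.46, SE 0.09, adjusted p = 0.00451), so replicate 1 lay between replicates 2 and 3. For COL17A1, which was lower in replicate 2, replicate 1 was also higher than 3 (0.38, SE 0.06, adjusted p = 0.000192). AQP3 did not pass the test (0.07, SE 0.08, adjusted p = 0.593 by edgeR). In the lysosome list 0 of 22 genes were higher and 1 was lower in replicate 1. RNR1 was higher in replicate 1 than in replicate 3 by edgeR (0.68, SE 0.06, adjusted p = 1.55e-06).

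The 2 replicate contrasts differed in how they moved with base composition. Over 13189 genes with a GENCODE transcript, the median of replicate 1 minus replicate 3 went from -0.19 in the lowest of 5 equal bins of G+C content (median 38.6%) to 0.08 in the highest (61.7%). The median difference of replicate 2 stayed between -0.01 and 0.004 over the same bins. Across genes, which are not independent replicates, Spearman's rho with G+C was 0.469 for replicate 1 minus 3 and 0.013 for replicate 2, and with transcript length -0.265 and -0.005. Members of both directions nevertheless had higher median G+C (52.4% for higher and 51.9% for lower) than all genes tested (48.6%), and the squamous list had 55.9%. The part of base composition in the difference of replicates 1 and 3 among members was not tested.

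**Figure D4:**
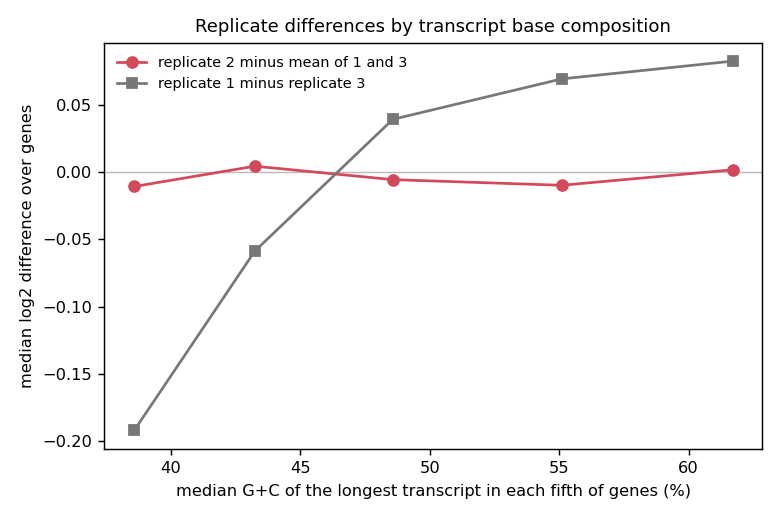
Median log2 difference over genes in 5 bins of transcript G+C content (x axis, median of each bin in percent), for replicate 2 minus the mean of replicates 1 and 3 and for replicate 1 minus replicate 3. The first stays near 0 across bins, whereas the second goes from -0.19 to 0.08.

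Treatment effects were then asked of the members, since a shift between replicate numbers leaves the treatment contrasts of a balanced layout free. TGF-β1 and dexamethasone were each compared with the same 3 control libraries, so their counts are given side by side. By edgeR without the replicate number, 578 of 1795 members changed with TGF-β1 (32.2%, against 32.8% of all genes), 188 with dexamethasone (10.5% against 10.4%), and 152 when dexamethasone was added to TGF-β1 (8.47% against 8.11%). These shares are near the background, in a fit where the rule gives members a large spread within groups. Of the 578, 285 rose (16.2% of all genes did) and 293 fell (16.6%). With dexamethasone 99 rose (5.54% of all genes) and 89 fell (4.90%), and after TGF-β1 it raised 101 (5.09%) and lowered 51 (3.01%). With the replicate number as a block, the counts were 1131 (63.0%, against 50.0% of all genes), 600 (33.4% against 22.2%) and 499 (27.8% against 17.5%). A member had to differ alike in the 4 groups, so the spread left after the block is small by choice, and nothing is read from the excess. The median size of the TGF-β1 effect without the block was 0.35 for higher members, 0.29 for lower members and 0.26 for all genes.

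Single members show how the replicate difference and a treatment effect lay on top of each other. The tests given here left out the replicate number, so each SE also holds the replicate difference. FAP rose with TGF-β1 (log2 fold change 5.55, SE 0.89, adjusted p = 0.00115 by edgeR), and the effect in replicates 1, 2 and 3, averaged over libraries without and with dexamethasone, was 5.44, 5.55 and 5.47. COL4A1 rose (4.17, SE 0.33, adjusted p = 3.87e-06 by edgeR), with effects of 3.99, 3.92 and 4.11, and IGFBP7, a secreted binder of insulin-like growth factors, rose (3.07, SE 0.46, adjusted p = 0.000683), with 3.02, 2.92 and 3.20. ALDH3A1 fell (-3.26, SE 0.93, adjusted p = 0.0221), with -1.91, -2.82 and -3.59. In these 4 genes the effect had the same sign in each replicate number. PMEPA1, a feedback inhibitor of TGF-β receptors, rose (4.80, SE 0.27, adjusted p = 2.01e-07), and MMP9, a gelatinase higher in replicate 2, rose as well (3.92, SE 0.56, adjusted p = 0.000156).

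Other members passed the TGF-β1 test of edgeR only with the block, where the rule leaves them little spread, so these values are given as a description. AQP3 gave a log2 change of -1.43, SE 0.81, adjusted p = 0.213 by edgeR without the block and adjusted p = 2.17e-11 with it. CCND2 gave -0.97, SE 0.75, adjusted p = 0.369 without the block and adjusted p = 6.64e-09 with it by edgeR. KRT6A gave 1.65, SE 0.76, adjusted p = 0.133 and 2.19e-07, LAMA1 0.91, SE 0.76, adjusted p = 0.401 and 3.91e-07, and STING1 -1.06, SE 0.60, adjusted p = 0.212 and 9.8e-07, in the same order. For GPNMB the test was not passed either way (0.04, SE 1.21, adjusted p = 0.986 without the block and adjusted p = 0.39 with it by edgeR).

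Dexamethasone effects on members, also tested without the replicate number, included known glucocorticoid targets. KLF15, a metabolic transcription factor induced through the glucocorticoid receptor, rose against control by edgeR (4.17, SE 0.23, adjusted p = 4.08e-08), with effects of 3.63, 3.79 and 3.16 in replicates 1, 2 and 3 averaged over libraries without and with TGF-β1. The circadian factor NPAS2 rose (2.61, SE 0.24, adjusted p = 4.04e-06), SPRY2, an inhibitor of receptor tyrosine kinase signals, rose (1.98, SE 0.22, adjusted p = 3.16e-05), and the inhibitor of NF-κB NFKBIA rose (2.24, SE 0.32, adjusted p = 0.000787). TNFAIP2 fell (-2.42, SE 0.44, adjusted p = 0.00475 by edgeR), as did the immediate-early gene IER2 (-1.27, SE 0.11, adjusted p = 2.79e-06). KLF15, NPAS2 and SPRY2 were lower in replicate 2 and NFKBIA and TNFAIP2 higher, and all 5 changed in the same direction with dexamethasone in each replicate number.

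Whether the treatments acted on replicate 2 as on replicates 1 and 3 was tested as an interaction over all genes. For TGF-β1 47 of 13469 genes passed (0.349%) by edgeR, 38 with a lower (0.282%) and 9 with a higher effect (0.0668%) in replicate 2. Of the 1795 members 6 passed (0.334%), chosen here after their values were seen unless named by the rule: PODXL, HMGA1, ANTXR1 and UACA with a lower effect, ATOH8 and CDKN1C with a higher one. With the replicate block 785 genes passed (5.83%), 156 of them members (8.69% of members, whose spread is small by choice), and with DESeq2 97. The edgeR count was 0 without replicate 2 of control, 0 without replicate 2 of TGF-β1, 1 without replicate 2 of dexamethasone, 1 without replicate 2 of both agents, 17 without replicate 3 of control, 25 without replicate 3 of TGF-β1 and 29 without replicate 3 of dexamethasone. With 1 replicate 2 library left out, the lone one with or without TGF-β1 is assumed to vary like the others.

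ATOH8, a helix-loop-helix factor, was at 47.2, 75.1 and 49.5 CPM in control, 13.7, 36.2 and 10.6 with TGF-β1, 144, 199.8 and 153 with dexamethasone, and 38.9, 106 and 34.7 with both. In each replicate number it was lower with TGF-β1 than without it among libraries alike in dexamethasone. Its effects were -1.83, -0.98 and -2.17 in replicates 1, 2 and 3 (interaction 1.07, SE 0.13, adjusted p = 0.00588 by edgeR). CDKN1C, a cyclin-dependent kinase inhibitor raised by glucocorticoids, was at 12.4, 23.7 and 12.9 CPM in control, 3.85, 9.43 and 3.98 with TGF-β1, 249, 412 and 251 with dexamethasone, and 81.5, 270.1 and 67.5 with both. Its effects were -1.63, -0.96 and -1.77 (0.94, SE 0.16, adjusted p = 0.0378 by edgeR).

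The other 41 genes of the TGF-β1 interaction were no members, and the rule, which asks for a like difference in all groups, works against an interaction. ANGPTL2, a secreted angiopoietin-like protein, was at 1.97, 3.57 and 1.74 CPM in control, 95.3, 18.9 and 129.8 with TGF-β1, 0.739, 1.04 and 0.957 with dexamethasone, and 52.2, 9.92 and 63.7 with both. With TGF-β1 replicate 2 was well below the others, and without it replicate 2 was the highest of each group. The TGF-β1 effect was 5.64, 2.69 and 5.94 in replicates 1, 2 and 3 (interaction -3.32, SE 0.45, adjusted p = 0.00786 by edgeR). ELN, which encodes elastin, was at 0.9097, 0.776 and 0.966 CPM in control, 38.5, 3.25 and 46.4 with TGF-β1, 12.9, 15.3 and 11.2 with dexamethasone, and 147, 41.4 and 125 with both, with effects of 4.32, 1.63 and 4.4 (-2.22, SE 0.27, adjusted p = 0.00588). The collagen-binding integrin ITGA11 (-1.69, SE 0.30, adjusted p = 0.0415), the cyclooxygenase PTGS1 (-1.52, SE 0.26, adjusted p = 0.0313) and the protease inhibitor SERPINE2 (-1.49, SE 0.26, adjusted p = 0.0435) also had a lower effect in replicate 2. SERPINE2 did not pass without the filter on low counts. ITGA11, PTGS1 and SERPINE2 did not pass with replicate 3 thinned to the depth of the others or with scaling by total count.

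Effects that were higher, or less negative, in replicate 2 were found for BAHCC1 (1.23, SE 0.17, adjusted p = 0.00786 by edgeR), LIPG (1.18, SE 0.22, adjusted p = 0.0492) and PEG10 (1.07, SE 0.12, adjusted p = 0.00588). PEG10, a gene derived from a retrotransposon, had TGF-β1 effects of -3.15, -2.10 and -3.20 in replicates 1, 2 and 3, and BAHCC1 had -1.14, -0.03 and -1.25. LIPG, endothelial lipase, had 0.87, 1.88 and 0.66, and it did not pass with DESeq2's size factors.

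**Figure D5:**
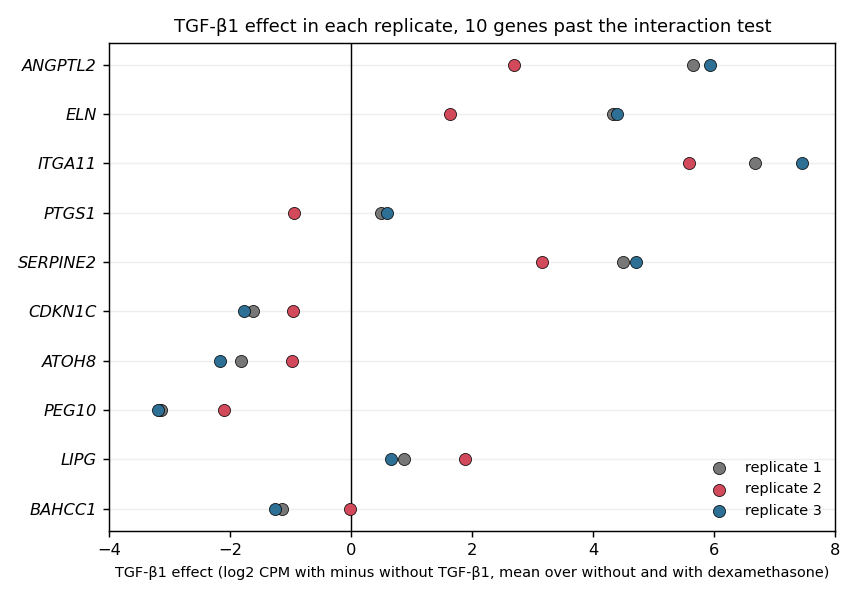
TGF-β1 effect on log2 CPM, averaged over libraries without and with dexamethasone, for each replicate number in 10 genes past the interaction test. The replicate 2 point lies to the left of both others for the 5 upper genes and to the right for the 5 lower ones, of which ATOH8 and CDKN1C are members.

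For dexamethasone 0 of 13469 genes passed the interaction with replicate 2 by edgeR (0%), the smallest adjusted p was 0.178, and 413 genes had an unadjusted p under 0.05. DESeq2 gave 9 genes, the replicate block 103 and the fit without a filter on low counts 37. With the block 15 members were among the 103, which is 0.836% of members against 0.765% of all genes. The count was 0 or 1 when any 1 library was left out.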

How the data were processed

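Read counts per gene were deposited as 1 table. Per the submitters' processing notes the authors counted with featureCounts on hg38, and per the labels' protocols libraries were poly(A)-selected from 500 ng RNA with the NEBNext Ultra kit, which does not mark strand. For the aligner and the strand setting, nothing is given in the sources used here. A further 6 columns matched no label and were not used. Some genes are not reported here. Members, lists and tests were chosen with earlier results of these data known.

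Of 28395 identifiers, 13469 passed edgeR's filterByExpr (minimum count 10). Counts were scaled by TMM and tested by quasi-likelihood in edgeR 4.0.16 (R 4.3.3), with p adjusted by Benjamini-Hochberg over all 13469 genes. The steps were tested on simulated data. Log2 CPM used a prior count of 2. P-values measure the spread between these libraries, which may be technical.

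Named genes were the 15 largest differences in each direction at a mean log2 CPM of at least 1, from each list at most 4 members a direction, the 5 largest interactions per direction and the 2 genes on each side of the threshold.

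Within-group deviations of same-numbered libraries correlated in all 18 pairs (r = 0.25 to 0.541), so the numbers pair the samples. Alternatives were the replicate block, other scalings, no filter, DESeq2 1.42.0, thinning replicate 3 and leaving out each library.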

Additional observations from a re-analysis of the deposited data

Results flagged for a closer look

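In 10 genes the effect of TGF-β1 differed between replicate 2 and replicates 1 and 3, by the interaction test of edgeR adjusted over all genes. They are the largest in each direction among the 47 genes that passed. The TGF-β1 effect in replicate 2 minus that in the others was -3.32 for ANGPTL2, -2.22 for ELN, -1.69 for ITGA11, -1.52 for PTGS1 and -1.49 for SERPINE2 on the log2 scale. It was 1.23 for BAHCC1, 1.18 for LIPG, 1.07 for PEG10, 1.07 for ATOH8 and 0.94 for CDKN1C. ATOH8 and CDKN1C were members and the other 8 were not. Of the 10, ITGA11, PTGS1 and SERPINE2 did not pass with scaling by total count or with replicate 3 thinned. SERPINE2 did not pass without the filter on low counts, and LIPG did not pass with DESeq2's size factors. Which genes passed, and whether any did, also depended on the library left out: the count ran from 0 to 64 over the 12 such fits. Culture, extraction and sequencing of replicate 2 cannot be told apart.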

How the results depend on the processing

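The replicate block, with the numbers pairing the samples, moved the counts of members changed to 1131 for TGF-β1, 600 for dexamethasone and 499 for dexamethasone after TGF-β1, and the interactions with replicate 2 to 785 genes for TGF-β1 and 103 for dexamethasone. Among the counts over all genes or all members it moved no other by over 1.5 times. In single lists, against replicate 1 alone, lower genes induced by glucocorticoids went from 4 to 2, and higher metallothioneins and higher matrix genes each from 2 to 1. At an adjusted p under 0.01 there were 402 higher and 576 lower members, and at a difference of at least 0.5 there were 283 and 315. Without the filter the interactions numbered 296 for TGF-β1 and 37 for dexamethasone, and with DESeq2 97 and 9. Leaving out 1 library gave 503 to 881 higher members, 141 to 281 members that differed between replicates 1 and 3, 0 to 64 genes in the TGF-β1 interaction and 0 to 1 in that of dexamethasone. The cause was not tested, although each of these fits has fewer samples. None of the 15 largest differences in each direction changed sign, and none of the 5 largest TGF-β1 interactions in each direction did. The differences of the other named genes were not followed across these settings. The medians of lists near 0 did change sign, as did that of all genes. With replicate 3 thinned, FGF5 (-1.80) and TMEM47 (1.58) were no longer members. Depth differs most for replicate 3, and with it thinned to the depth of the others there were 742 higher and 855 lower members.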

Other observations

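Of 14 Notch pathway genes 4 were lower and 0 higher, led by HEYL, a transcriptional repressor downstream of Notch (-1.13 ± 0.23), and the ligand JAG2 (-0.62 ± 0.16). Of 17 circadian clock genes 5 were lower and 0 higher (3 lower without replicate 2 of dexamethasone, and 3 without that of both agents), among them the repressors BHLHE41 (-0.70 ± 0.39) and NR1D1 (-0.55 ± 0.22). Of 7 metallothioneins, small proteins that bind zinc and copper, 2 were higher, MT1E (0.94 ± 0.40) and MT2A (0.52 ± 0.49), and their near-identical copies may share reads. That count was 0 without replicate 2 of dexamethasone and 1 without replicate 2 or 3 of control, replicate 3 of TGF-β1, replicate 1 of dexamethasone (with 1 lower) or replicate 1 or 3 of both agents. Of 23 inflammatory mediators 3 were higher, MMP9 (1.26 ± 0.49), TNFAIP2 (0.94 ± 0.21) and NFKBIA (0.61 ± 0.21), and 3 were lower, ICAM1 (-0.90 ± 0.26), LIF (-0.58 ± 0.41) and CSF1 (-0.27 ± 0.14). The higher count was 5 without replicate 1 of control and the lower count 1 without replicate 2 of TGF-β1. Of 21 growth factor ligands and binders 3 were higher, with the EGF receptor ligand EREG (0.70 ± 0.30) among them, and 3 were lower, with its relative TGFA (-0.61 ± 0.29). Of 21 YAP/TAZ targets 1 was higher (4.76%) and 4 were lower (19.0%). Of 28 genes induced by glucocorticoids 4 were higher and 4 lower (14.3% each), with 2 lower without replicate 2 of control. Over all genes tested 5.67% were higher and 7.65% lower members.

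Markers of other cell types were few among the genes tested. Of 15 airway epithelial markers, 6 had a difference above 0 and 9 below 0. Among them 4 were higher members, led by the tight junction gene CLDN1 (1.07 ± 0.33), and CLDN7 was a lower member (-0.32 ± 0.13). The lower count was 0 without replicate 2 of control, replicate 3 of TGF-β1, or replicate 2 or 3 of dexamethasone. THY1 (0.51 ± 0.10) was a higher member among 3 fibroblast markers, CSF1R (-0.62 ± 0.21) a lower one among 4 leukocyte markers, and 0 of 5 endothelial and 0 of 2 ciliated markers were members. The fibroblast count was 0 without replicate 2 of both agents and 2 without replicate 2 or 3 of dexamethasone. The leukocyte count was 0 without replicate 2 of dexamethasone or of both agents, and 2 lower without replicate 2 of control. MUC5B, a secreted airway mucin, was the 1 secretory marker tested, at 0.8702 to 9.16 CPM in replicate 2 and 0.243 to 4.09 in replicates 1 and 3 (1.35 ± 0.29), with BPIFA1 and SCGB3A2 at no count.

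CYP1B1 and TIPARP, chosen after their values were seen because both are textbook targets of the aryl hydrocarbon receptor, as AHRR is, were higher members. CYP1B1 was at 252, 581 and 231 CPM in control, 99.9, 240.0 and 123 with TGF-β1, 197, 343 and 186 with dexamethasone, and 144, 217 and 152 with both in replicates 1, 2 and 3 (0.94 ± 0.32), and TIPARP was at 39.3 to 295 CPM in replicate 2 and 21.4 to 251 in replicates 1 and 3 (0.57 ± 0.21).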
